A study of Mus musculus with 4 samples.

Results

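The 32 genes described here encode the machinery that copies and repairs DNA: the replicative helicase and its loaders, the DNA polymerases and their clamp, the enzymes that supply deoxynucleotides, and a set of repair and checkpoint proteins. Each gene was found by its symbol among array probe sets that carry a single symbol, and the probe set with the highest mean over the 4 libraries stood for it. All 32 had such a probe set, of 18193 genes named this way on the array. All 32 stood among the 8892 genes tested, those whose brightest probe set had a mean log2 value of at least 4.

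BA/F3, the source of all libraries, is an established mouse pro-B cell line that depends on interleukin 3. Titles, source names and genotypes assign 2 libraries to cells carrying human ETV6-RUNX1 (TEL-AML1), a leukemia fusion gene, in inducible form and 2 to control cells that lack it, which the design text calls empty vector lines. All cells, controls included, received 32.5 pM of the inducer mifepristone during 16 h before total RNA was taken for a mouse 3' expression array. The labels do not say what drives the transgene or whether the line is a single clone, and call the replicates independent without naming separate cultures. Titles and design text speak of chromatin immunoprecipitation, while the molecule and the protocols are those of an RNA measurement. The libraries are called fusion 1, fusion 2, control 1 and control 2 by their titles. The free-text description field names control 1 and fusion 2 as fusion-expressing and fusion 1 and control 2 as control, which exchanges both replicate 1 libraries. The comparisons of the 32 genes are therefore given under both labels, and neither is assumed to be right.

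DNA replication begins when ORC, CDC6 and CDT1 load the ring of MCM2 to MCM7 onto origins. In S phase CDC45 and the GINS complex join that ring to form the active helicase. Polymerase alpha with its primase starts each strand, the clamp loader RFC places the PCNA clamp, and polymerases delta and epsilon extend. E2F transcription factors are known to raise many of these genes as cells enter S phase, and a fast-growing hematopoietic line such as BA/F3 expresses them continuously.

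Facts of the whole series that bear on these genes were few. Each library had between 17517 and 17688 probe sets at a log2 value of 4 or more, and no member's standing probe set came near the array's lowest value of 2.23. Of the 9 early B cell markers on the array, 1 (Cd79b) reached the tested level and 6, Vpreb1, Vpreb3, Ebf1, Pax5, Rag1 and Dntt, lay at the floor in every library. All 3 interleukin 3 receptor chain genes were tested. Of 8 mast cell and basophil markers 5 reached the tested level, and Kit stayed at the floor. Of these 5, Fcer1a, Ms4a2, Hdc and Cma1 were higher without overlap by description, where 30.3% of all tested genes were. By title 0 of the 5 were free of overlap, where 9.67% of all tested genes were. Fcer1a read 9.91 in control 1 and 7.69 in fusion 2, against 2.37 in fusion 1 and 2.32 in control 2. It thus reached the tested level only through the libraries where it was high. The summed linear signal of the 8 mast cell and basophil markers was 6879 in fusion 1 and 6406 in fusion 2, against 14380 in control 1 and 6346 in control 2. Most of this sum in every library was Gata2, whose groups overlapped by description, so it says little about the other 4. Gata2 read 12.71 in fusion 1 and 12.44 in fusion 2, against 13.26 in control 1 and 12.60 in control 2. Of 7 myeloid markers Elane and Ctsg were at the floor, and the summed signal was 62.4 in fusion 1 and 246 in fusion 2, against 180 in control 1 and 499.5 in control 2. This sum joins markers of opposite direction by description. Lyz2 was higher without overlap, by 2.525, while Mpo and Prtn3 differed by -1.49 and -0.84 with overlap. By title these 3, the tested ones, were all lower, with overlap. The 3' minus 5' difference of Actb lay between 0.63 and 0.70 in the 4 libraries and that of Gapdh between -0.37 and -0.30. That of the dap labelling spike was 3.10 in fusion 1 and 4.43 in fusion 2, against 3.71 in control 1 and 3.19 in control 2, so that both libraries described as fusion-expressing were the higher. The part of these markers and of the spike in the differences below was not tested.

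The replication and repair genes varied little between the libraries. Their highest and lowest libraries lay a median of 0.36 apart on the log2 scale, and 22 of the 32 stayed within 0.5. Among all tested genes the median range was 0.67 and 34.5% stayed within 0.5. Among the 6725 genes whose probe sets were at least as bright as the dimmest member the median range was 0.63 and 36.9% stayed within 0.5. That set shares only the lower bound with the members: its median level was 9.51, against 11.13 for the members. The part of brightness in the smaller ranges was not tested. A range above 1 was seen in 4 members, Pola1, Tyms, Fancd2 and Brca1, which is 12.5% of them, against 28.6% of all tested genes. The median over the 32 genes was 10.93 in fusion 1 and 11.18 in fusion 2, against 11.08 in control 1 and 11.02 in control 2. Bulk RNA does not tell fewer cells of a type from less RNA per cell, so a level here is an average over the culture.

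**Figure D1:**
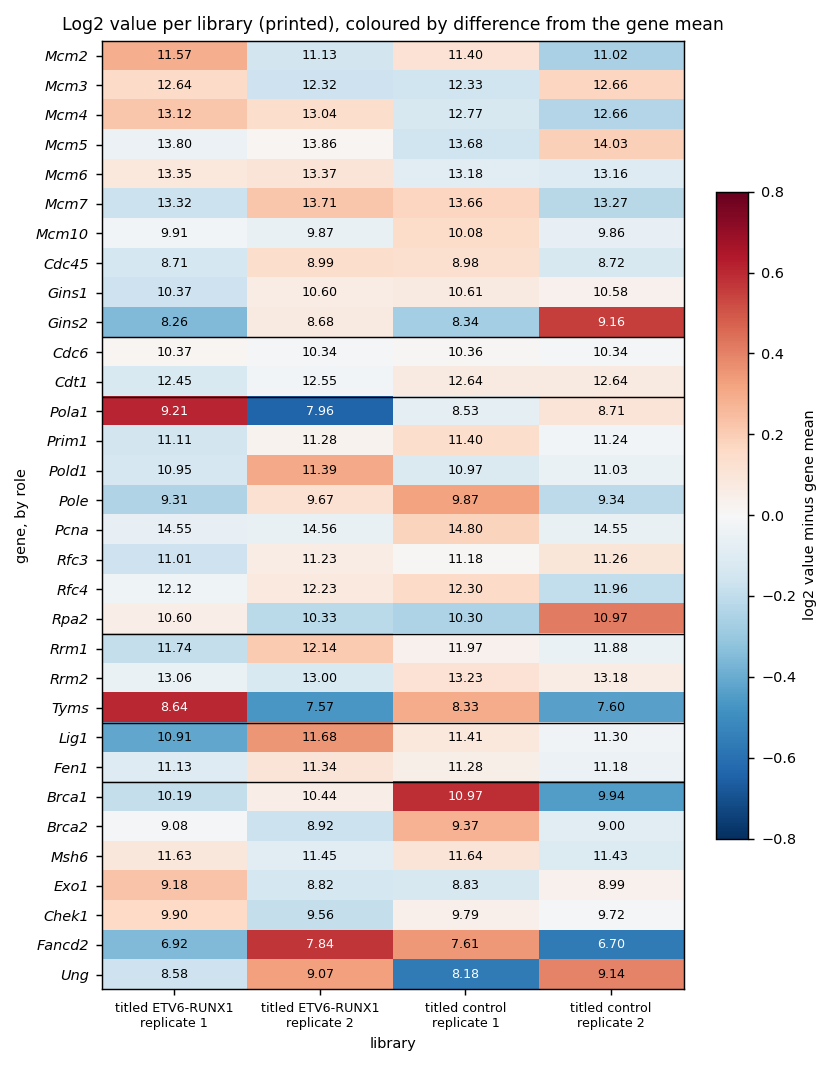
Log2 value of each of the 32 genes (rows, grouped by role: helicase, licensing, polymerase and clamp, nucleotide supply, lagging strand, repair and checkpoint) in the 4 libraries (columns, named by title). Cells print the value and are coloured by its difference from the gene's own mean. Most cells are pale, and the deepest colours are in Pola1, Tyms, Fancd2, Brca1, Gins2 and Ung.

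By title, no replication or repair gene passed the test between fusion and control libraries. Of the 32, 0 passed an adjusted p of 0.05 in limma, as did 0.0% of the 17720 probe sets tested. At an unadjusted p under 0.05 there was 1 member, Mcm4, where 0.282% of all probe sets reached that level. With 1 probe set per gene, as for the members, 20 of the 8892 tested genes did. Groups failed to overlap in 4 members, which were Mcm4 and Mcm6 higher and Rrm2 and Cdt1 lower in the libraries titled fusion. Over all tested genes 3.96% were higher and 5.71% lower without overlap, 9.67% together, against 12.5% of the members. The median difference was -0.02 over the members and -0.02 over all tested genes. With 2 libraries a group, an exact permutation test of a single gene could not go below a two-sided p of 0.333.

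By description, the groups failed to overlap more often, as they did over the whole array. Again 0 of the 32 passed in limma, where 0.0113% of probe sets did, with adjusted p-values of 0.15 to 1. At an unadjusted p under 0.05 there were 4 members, Mcm7, Fancd2, Mcm3 and Pole, or 12.5%, against 19.7% of all probe sets. With 1 probe set per gene, as for the members, 2076 of the 8892 tested genes reached that level. Without overlap, 12 members were higher and 4 lower in the libraries described as fusion-expressing. These are 16 of the 32, and 55.8% of all tested genes also failed to overlap, with 30.3% higher and 25.6% lower. The median difference was 0.06 over the members and 0.01 over all tested genes. The median absolute difference was 0.17 over the members and 0.33 over all tested genes.

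**Figure D2:**
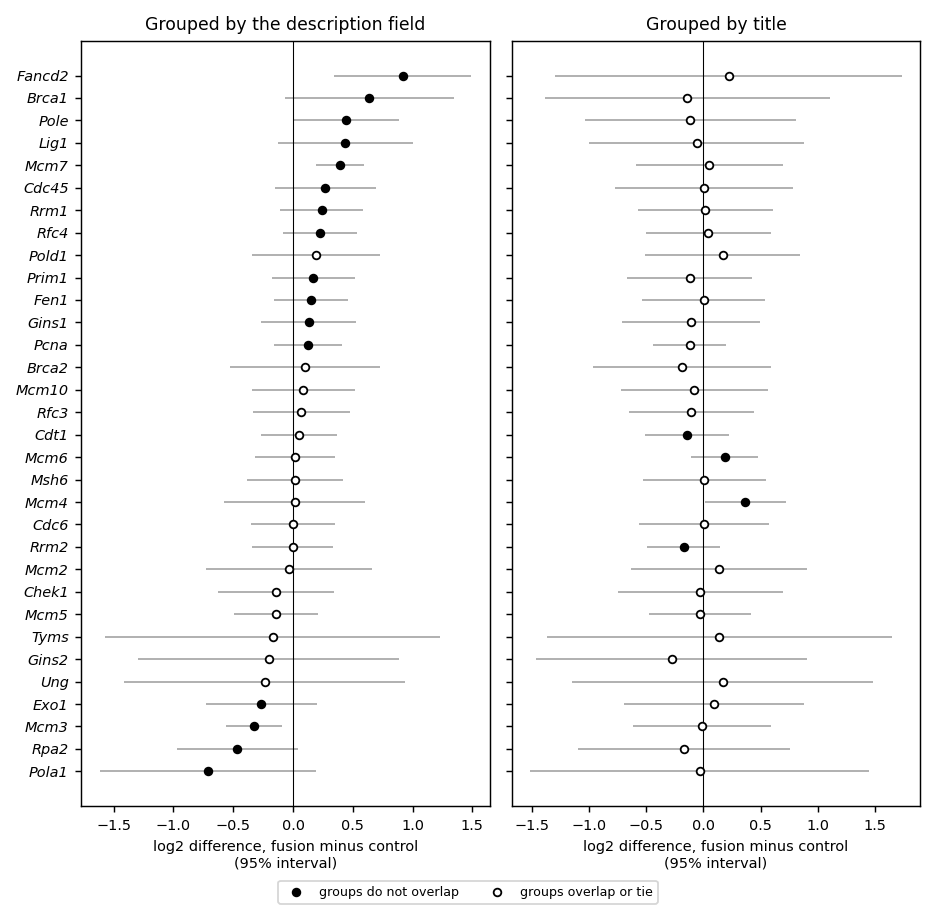
Log2 difference, fusion minus control, of each gene with its 95% limma interval, grouped by the description field (left) and by title (right), with genes in the order of the left panel. Filled points mark genes whose 2 groups of 2 libraries do not overlap. By description the genes run from Pola1 at -0.71 to Fancd2 at 0.92, and by title from Gins2 at -0.28 to Mcm4 at 0.36.

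The 6 subunits of the MCM2-7 ring, the motor of the replicative helicase, did not move together under either label. By title, Mcm4 read 13.12 in fusion 1 and 13.04 in fusion 2, against 12.77 in control 1 and 12.66 in control 2. Both fusion libraries were above both control libraries, by 0.36 (SE 0.12, 95% interval 0.01 to 0.72, limma adjusted p = 1). The difference was alike in the replicate 1 pair, at 0.35, and in the replicate 2 pair, at 0.38. The other Mcm4 probe set differed by 0.11 and its groups overlapped. Mcm6 read 13.35 in fusion 1 and 13.37 in fusion 2, against 13.18 in control 1 and 13.16 in control 2, a difference of 0.19 (SE 0.10). These groups also stood apart, but the second Mcm6 probe set differed by -0.04. Both standing probe sets carry the suffix _x_at, which marks probes able to match other transcripts. In all, 9 members had a standing probe set ending in _x_at or _s_at: Mcm3, Mcm4, Mcm5, Mcm6, Mcm7, Pold1, Rrm2, Fen1 and Chek1.

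By description, the MCM subunits with the largest differences were Mcm7 and Mcm3, in opposite directions. Mcm7 read 13.66 in control 1 and 13.71 in fusion 2, which the description calls fusion-expressing, against 13.32 in fusion 1 and 13.27 in control 2. This was a difference of 0.39 (SE 0.07, 95% interval 0.19 to 0.60, limma adjusted p = 0.15), or 1.31-fold. All 4 tested probe sets of Mcm7 were higher, by 0.28 to 0.42, and in each the groups did not overlap. Mcm3 read 12.33 in control 1 and 12.32 in fusion 2, against 12.64 in fusion 1 and 12.66 in control 2. This was a difference of -0.33 (SE 0.08, 95% interval -0.56 to -0.09, limma adjusted p = 0.18). All 4 tested probe sets of Mcm3 were lower, by 0.31 to 0.79 in size, again without overlap. The probe sets of a gene share their RNA and so are repeated readings, not replicates.

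Mcm2 and Mcm5 overlapped under both labels at their standing probe sets. Mcm2 read 11.57 in fusion 1 and 11.13 in fusion 2, against 11.40 in control 1 and 11.02 in control 2, so that both replicate 1 libraries were the higher. Its second probe set was higher by title without overlap, by 0.25. Mcm5 read 13.80 in fusion 1 and 13.86 in fusion 2, between control 1 at 13.68 and control 2 at 14.03. By description Mcm2 differed by -0.03 (SE 0.24), Mcm5 by -0.14 (SE 0.12), Mcm4 by 0.01 (SE 0.21) and Mcm6 by 0.02 (SE 0.12).

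**Figure D3:**
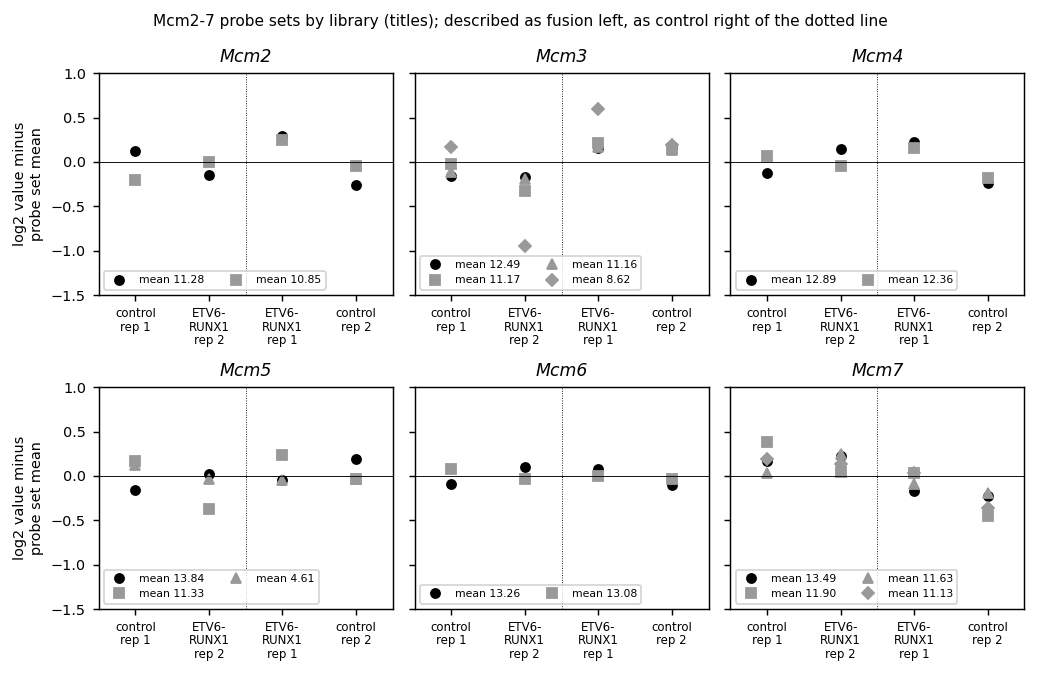
Every tested probe set of Mcm2 to Mcm7 in the 4 libraries, as its log2 value minus that probe set's mean over the libraries. The libraries described as fusion-expressing are left of the dotted line and those described as control right of it; black circles mark the brightest probe set, and legends give each probe set's mean. All 4 Mcm7 probe sets are higher on the left, and all 4 Mcm3 probe sets are lower there.

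Because the subunits are textbook E2F targets, the RefSeq promoter windows of the members were searched for E2F words. Each window holds 250 bases before and 50 after an annotated start (GRCm38.p6). The words were TTTCCCGC, TTTGGCGC, TTTCGCGC and TTTGCCGC on either strand. Of the 32 members 26 were in the table, and 12 of these, or 46.2%, held at least 1 word in a window: Brca2, Cdc6, Cdt1, Lig1, Mcm3, Mcm5, Mcm6, Mcm7, Msh6, Pola1, Pold1 and Rfc3. Among all genes with a window, 27025 in number, the share was 2.61%, and among all 32851 windows it was 2.26%. The CCAAT box, searched the same way, was in 61.5% of the members and 41.1% of all genes. Exo1, Fancd2, Gins1, Gins2, Mcm4 and Pole were not matched.

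The 180 bases before the start are shown for the 3 MCM genes with a word there, and for Cdc6 and Pola1, the members with the smallest and the largest range over the libraries. Capitals mark E2F words on either strand; in Mcm5 and in Mcm6 a pair of words overlaps.
Mcm5, chr8:75109329-75109508, plus strand: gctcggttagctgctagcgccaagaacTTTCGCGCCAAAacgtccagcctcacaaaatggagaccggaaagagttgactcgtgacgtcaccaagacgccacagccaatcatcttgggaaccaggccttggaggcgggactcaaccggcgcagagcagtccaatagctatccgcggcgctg
Mcm6, chr1:128359706-128359885, minus strand: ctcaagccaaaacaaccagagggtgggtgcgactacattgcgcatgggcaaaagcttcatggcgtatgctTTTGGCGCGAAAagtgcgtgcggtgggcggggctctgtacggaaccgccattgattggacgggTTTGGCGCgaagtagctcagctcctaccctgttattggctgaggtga
Mcm7, chr5:138171884-138172063, minus strand: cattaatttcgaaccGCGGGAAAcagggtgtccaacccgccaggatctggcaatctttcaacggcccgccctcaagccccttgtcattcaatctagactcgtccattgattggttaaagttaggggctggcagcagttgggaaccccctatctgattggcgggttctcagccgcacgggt
Cdc6, chr11:98907971-98908150, plus strand: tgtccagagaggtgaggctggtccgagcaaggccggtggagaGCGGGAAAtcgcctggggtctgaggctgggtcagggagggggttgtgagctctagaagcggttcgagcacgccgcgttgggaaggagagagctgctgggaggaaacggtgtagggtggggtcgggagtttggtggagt
Pola1, chrX:93632156-93632335, minus strand: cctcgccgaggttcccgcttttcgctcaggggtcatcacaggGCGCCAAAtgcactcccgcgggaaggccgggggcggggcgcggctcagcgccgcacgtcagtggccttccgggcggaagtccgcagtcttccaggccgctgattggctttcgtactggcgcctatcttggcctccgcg

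In these stretches Mcm6 has 3 words, Mcm5 has 2 and the others have 1 each. Mcm3 has no word before its start and 2 after it, from bases 20 and 39. Cdc6 and Pola1, at the ends of the order by range, carry their word at the same place, from base -138. A match is a string of letters and does not show that a factor binds there.

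**Figure D4:**
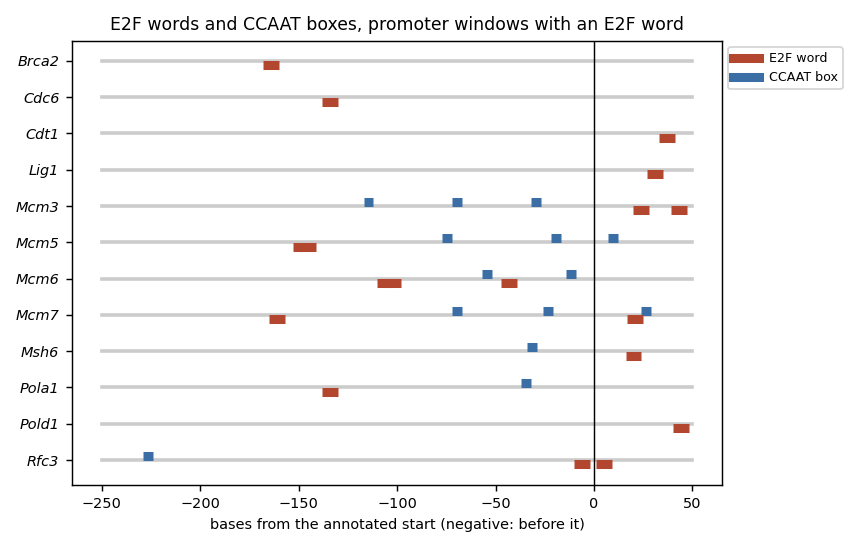
Positions of E2F words (red) and CCAAT boxes (blue) in the 12 promoter windows that hold an E2F word, in bases from the annotated start, 1 line per gene. Words of Brca2, Cdc6, Mcm5, Mcm6 and Pola1 lie before the start, those of Cdt1, Lig1, Mcm3, Msh6 and Pold1 after it, and Mcm7 and Rfc3 have words on both sides.

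Among the proteins that load and activate the ring, Cdc6 was the steadiest of the 32 genes. It read 10.37 in fusion 1 and 10.34 in fusion 2, against 10.36 in control 1 and 10.34 in control 2, a range of 0.03. Its difference by title was the same in both pairs, at 0.003. Whether the summarising of probes set these values was not tested. Cdt1, its partner in loading, was slightly lower by title without overlap, at -0.14 (SE 0.13), as was its second tested probe set, at -0.12. By description it differed by 0.05 (SE 0.11). Cdc45, which joins the loaded ring, was higher by description at its standing probe set, by 0.27 (SE 0.15, adjusted p = 0.41). Its second probe set read the same value in all 4 libraries. Mcm10, needed to activate the helicase, differed by 0.09 (SE 0.15) by description and -0.08 (SE 0.23) by title. Gins1, a GINS subunit, differed by 0.13 (SE 0.14) by description, without overlap, and by -0.11 (SE 0.21) by title.

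Gins2, another GINS subunit, had the lowest difference by title. It read 8.26 in fusion 1 and 8.68 in fusion 2, against 8.34 in control 1 and 9.16 in control 2, a difference of -0.28 (SE 0.41). The groups overlapped, and both replicate 2 libraries were above both replicate 1 libraries.

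Polymerase genes had differences of both signs by description, and none passed the test. Pola1, the catalytic subunit of polymerase alpha, read 8.53 in control 1 and 7.96 in fusion 2, both described as fusion-expressing, against 9.21 in fusion 1 and 8.71 in control 2. The difference of -0.71 (SE 0.32, 95% interval -1.62 to 0.19, limma adjusted p = 0.33) was the lowest of the members, and the 2 groups did not overlap. Prim1, the primase subunit that works beside it, was higher by 0.17 (SE 0.12). Pole, the catalytic subunit of polymerase epsilon, read 9.87 in control 1 and 9.67 in fusion 2, against 9.31 in fusion 1 and 9.34 in control 2. That was a difference of 0.45 (SE 0.16, 95% interval 0.01 to 0.89, limma adjusted p = 0.25). Pold1, the catalytic subunit of polymerase delta, differed by 0.19 (SE 0.19), with overlapping groups. By title these 4 genes differed by -0.12 to 0.17.

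None of the clamp genes passed the test under either label. Pcna, the sliding clamp, read 14.80 in control 1 and 14.56 in fusion 2, against 14.55 in fusion 1 and 14.55 in control 2. Its groups by description were separated by less than 0.01, so its difference of 0.12 (SE 0.10) rests on control 1. The clamp loader subunits Rfc3 and Rfc4 differed by 0.07 (SE 0.14) and 0.23 (SE 0.11) by description. Rfc4 was higher without overlap at both of its tested probe sets, by 0.17 at the other one. Rpa2, a subunit of the complex that coats single-stranded DNA, read 10.30 in control 1 and 10.33 in fusion 2, against 10.60 in fusion 1 and 10.97 in control 2. It was lower by description at both of its probe sets, by -0.47 (SE 0.18, limma adjusted p = 0.28) at the standing one and by -0.70 at the other.

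Enzymes that supply deoxynucleotides showed no separation that their standing probe sets shared. Rrm2, the regulated small subunit of ribonucleotide reductase, read 13.06 in fusion 1 and 13.00 in fusion 2, against 13.23 in control 1 and 13.18 in control 2. The fusion libraries were lower by title by -0.17 (SE 0.11, 95% interval -0.49 to 0.14, limma adjusted p = 1). All 3 of its probe sets were lower by title, and in 1 of them the groups overlapped. By description Rrm2 differed by -0.002 (SE 0.12), and its other probe sets by -0.15 with overlap and -0.42 without. Rrm1, the large subunit, was higher by description by 0.24 (SE 0.12) and differed by 0.02 (SE 0.21) by title. Its second probe set was lower by title without overlap, by -0.18, and differed by 0.03 by description, with overlap. Tyms, which makes thymidylate, separated the replicate numbers at its standing probe set. It read 7.57 in fusion 2 and 7.60 in control 2, against 8.64 in fusion 1 and 8.33 in control 1, a difference of -0.90 for replicate 2 minus replicate 1 (SE 0.22). By description that probe set differed by -0.17 (SE 0.49) and by title by 0.14 (SE 0.53), with overlapping groups. The second tested probe set of Tyms differed by -0.03 for replicate 2 minus replicate 1. By description it was higher without overlap, by 0.29.

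Neither enzyme that finishes the lagging strand passed the test under either label. Lig1, the ligase that seals Okazaki fragments, read 11.41 in control 1 and 11.68 in fusion 2, against 10.91 in fusion 1 and 11.30 in control 2. The difference was 0.44 (SE 0.20, 95% interval -0.13 to 1.01, limma adjusted p = 0.34), and by title it was -0.06 (SE 0.33). Fen1, the flap nuclease, differed by 0.15 (SE 0.11, limma adjusted p = 0.52) at its standing probe set and by -0.01 at its other one. The groups by description did not overlap at either gene's standing probe set, as in 55.8% of all tested genes.

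Of the repair and checkpoint genes, Fancd2 had the highest difference by description. Fancd2, the protein monoubiquitinated by the Fanconi anemia core complex at interstrand crosslinks, read 7.61 in control 1 and 7.84 in fusion 2, against 6.92 in fusion 1 and 6.70 in control 2. Both libraries described as fusion-expressing were above both others, by 0.92 (SE 0.20, 95% interval 0.34 to 1.49, limma adjusted p = 0.17), or 1.89-fold. Its other tested probe set was also higher, by 0.51, without overlap. By title the same gene differed by 0.22 (SE 0.53), since its pairs ran in opposite directions, -0.70 in replicate 1 and 1.14 in replicate 2.

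Brca1, which acts in homologous recombination, read 10.97 in control 1 and 10.44 in fusion 2, against 10.19 in fusion 1 and 9.94 in control 2. The difference by description was 0.64 (SE 0.25, 95% interval -0.07 to 1.34, limma adjusted p = 0.28), and control 1 was the highest library at all 3 tested probe sets. The other probe sets differed by 0.52 and 0.06, with overlapping groups. Brca2, its partner in that pathway, differed by 0.10 (SE 0.22) by description. By title it read 9.08 in fusion 1 and 8.92 in fusion 2, against 9.37 in control 1 and 9.001 in control 2, a difference of -0.19 (SE 0.27).

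Exo1, Chek1 and Msh6 did not pass the test by description, with limma adjusted p-values of 0.46, 0.69 and 0.97. Exo1, an exonuclease of mismatch repair and end resection, read 8.83 in control 1 and 8.82 in fusion 2, against 9.18 in fusion 1 and 8.99 in control 2. It differed by -0.26 (SE 0.16), and both tested probe sets were lower without overlap. Chek1, the S-phase checkpoint kinase, read 9.79 in control 1 and 9.56 in fusion 2, against 9.90 in fusion 1 and 9.73 in control 2. Its groups overlapped at a difference of -0.14 (SE 0.17), and all 4 of its tested probe sets had a negative difference, 2 of them without overlap. The dimmest of the 4 read 3.93 in fusion 1, fusion 2 and control 1, and 4.23 in control 2. Control 2 alone carried that probe set past the filter and gave its difference, so it adds nothing to the agreement. Msh6, a mismatch recognition protein, differed by 0.01 (SE 0.14).

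Ung, which removes uracil from DNA, was among the lowest by description, at -0.24 (SE 0.41), but its libraries followed the replicate number. It read 9.07 in fusion 2 and 9.14 in control 2, against 8.58 in fusion 1 and 8.18 in control 1, a difference of 0.73 for replicate 2 minus replicate 1 (SE 0.23).

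Split by replicate number, 0 of the 32 genes passed in limma, as for 0.0% of all probe sets. At an unadjusted p under 0.05 there were 2, Tyms and Ung, or 6.25%, against 7.86% of all probe sets. With 1 probe set per gene, as for the members, 554 of the 8892 tested genes reached that level. Groups failed to overlap in 12 members, or 37.5%, and in 31.2% of all tested genes. Of the variance of the members between libraries, 9.17% lay along the title split, 47.8% along the description split and 43.0% along the replicate number. For all tested genes these shares were 7.69%, 62.0% and 30.3%. The shares add squared differences, so the members with large differences weigh most. These were Tyms, Ung and Gins2 along the replicate number and Fancd2, Pola1 and Brca1 along the description split.

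The replicate 2 pair, fusion 2 and control 2, is the one for which all labels name the same conditions. Within it 19 members were higher and 13 lower in fusion 2, with a median of 0.01, and 1 member, Fancd2, differed at least 2-fold, as did 11.6% of all tested genes, whose median was 0.0. In the replicate 1 pair 12 were higher and 20 lower in fusion 1, with a median of -0.16, and 0 differed 2-fold, where 12.6% of all tested genes did and the median of all was -0.03. The sign was opposite in the pairs for 23 members, or 71.9%, and for 76.8% of all tested genes. With 1 library a side these pair differences have no replicate check.

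**Figure D5:**
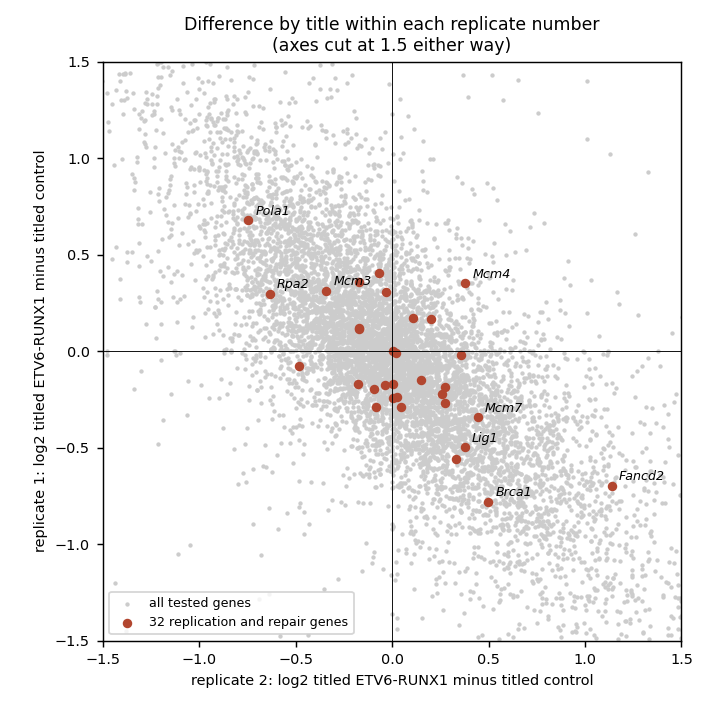
Log2 difference, titled ETV6-RUNX1 minus titled control, in the replicate 2 pair (x axis) and the replicate 1 pair (y axis) for the 32 members (red) and all 8892 tested genes (grey). The axes are cut at 1.5 either way, which leaves out 6.47% of the grey points. Fancd2, Brca1, Lig1 and Mcm7 lie at lower right, Pola1, Rpa2 and Mcm3 at upper left, and Mcm4 at upper right.

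Of a wider list of 110 further genes of replication, nucleotide supply and repair, 102 were on the array and 99 were tested. Of these 0 passed in limma under either label. By description 14 had an unadjusted p under 0.05, where 19.7% of all probe sets and 2076 of the 8892 tested genes did. Without overlap 31 were higher and 22 lower. Those 53 are 53.5% of the list, against 55.8% of all tested genes, and the median difference was 0.02. By title 0 had an unadjusted p under 0.05, and 3 were higher and 6 lower without overlap, which is 9.09% of the list against 9.67% of all tested genes, with a median of -0.02. The branches of the list had different counts. By description 31 of 47 other repair genes were free of overlap, or 66.0%, and 20 of 46 other replication genes, or 43.5%. By title 14 of the other replication genes had a positive and 32 a negative difference, 0 and 6 of them without overlap, together 13.0%. Over all tested genes 4103 had a positive and 4764 a negative difference, and 3.96% were higher and 5.71% lower without overlap. The 3 genes higher by title without overlap were all in the repair branch. The difference between the branches was not tested.

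The 4 genes with the smallest p in each direction by description were Dna2, Rad54l, Chek2 and Mutyh, higher, and Orc2, Dctpp1, Apex1 and Lig4, lower. Dna2, a nuclease of Okazaki fragment processing and resection, read 11.83 in control 1 and 11.82 in fusion 2, against 10.98 in fusion 1 and 11.01 in control 2, a difference of 0.83 (SE 0.10, limma adjusted p = 0.13). Rad54l, a recombination motor, differed by 0.89 (SE 0.17), Chek2, a damage kinase, by 1.21 (SE 0.26) and Mutyh, an adenine glycosylase, by 0.74 (SE 0.17). Orc2, an origin recognition subunit, read 7.40 in control 1 and 7.52 in fusion 2, against 8.54 in fusion 1 and 8.56 in control 2, a difference of -1.09 (SE 0.17, limma adjusted p = 0.14). Apex1, the abasic site endonuclease, differed by -1.16 (SE 0.31), Lig4, the end-joining ligase, by -0.94 (SE 0.28) and Dctpp1, a nucleotide pyrophosphatase, by -0.89 (SE 0.20).

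By title the 4 smallest p in each direction belonged to Lig3, Parp1, Msh3 and Dck, with differences of 0.29 to 0.52, and to Pold4, Rfc2, Fance and Wdhd1, with differences of -0.45 to -0.27. Each had an adjusted p of 1.

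Regulators of S phase and mitosis genes are given for comparison. Of 14 E2F, pocket protein, S-phase cyclin and related genes, all tested, 0 passed in limma under either label. By description 4 had an unadjusted p under 0.05, where 19.7% of all probe sets and 2076 of the 8892 tested genes did. Without overlap 6 were higher and 3 lower, and the median was 0.22. These 9 are 64.3% of the list, against 55.8% of all tested genes. By title 0 had an unadjusted p under 0.05, where 0.282% of all probe sets did. Without overlap 0 were higher and 2 lower, or 14.3%, against 9.67% of all tested genes, and the median was -0.12.

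E2f2, an activating E2F, read 7.98 in control 1 and 7.69 in fusion 2, against 5.78 in fusion 1 and 5.90 in control 2, a difference of 2.00 by description and of -0.21 by title. Ccne2, an S-phase cyclin, differed by 1.27 by description and 0.17 by title. The 3 that were lower by description without overlap were Mybl2 at -0.53, E2f3 at -0.43 and Ccne1 at -0.12, and by title they differed by -0.12, 0.17 and -0.06. E2f1 followed the replicate number, at 8.15 in fusion 2 and 7.85 in control 2, against 5.86 in fusion 1 and 6.09 in control 1.

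Of 17 tested mitosis genes 0 passed under either label. By description 1 had an unadjusted p under 0.05, where 19.7% of all probe sets and 2076 of the 8892 tested genes did. Without overlap 5 were higher and 2 lower, or 41.2%, against 55.8% of all tested genes, and the median was 0.08. By title 0 had an unadjusted p under 0.05, where 0.282% of all probe sets did. Without overlap 1 was higher and 0 lower, or 5.88%, against 9.67% of all tested genes, and the median was 0.00.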

How the data were processed

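The deposited table holds log2 values for 45101 probe sets of a mouse 3' expression array in 4 libraries, produced by the authors using GCRMA (2.28.0) according to the submitters' processing notes. This method subtracts background, normalizes and summarises probes, and it can leave equal values near the floor. Equal values also occurred above the floor, as at the second Cdc45 probe set, at 5.47 in all 4 libraries. The log2 scale was inferred from the range of the values. Further upstream steps were not given in the sources used here. Precision is set by how few arrays there are.

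Control probe sets (64) were left out, and probe sets with a mean of at least 4 were tested (17720). Names came from the platform annotation, in which 34958 probe sets had 1 symbol, 932 several and 9211 none. The test was limma's (3.58.1, R 4.3.3; lmFit, eBayes with trend), with 2 residual degrees of freedom. It was two-sided, and p-values were adjusted by Benjamini-Hochberg across the tested probe sets, at a threshold of 0.05. The script was tested on simulated data. As separate cultures are not named, a p-value reflects spread among these libraries, which may be technical. Values in every library are given for Mcm2 to Mcm7, Pcna, Rrm2, Cdc6, Brca1 and Chek1, for the 5 highest and 5 lowest members by description and for the 3 highest and 3 lowest by title. From the wider list up to 4 genes per label and direction are named. Genes singled out beyond this, such as Tyms and the S-phase regulators, were chosen after their values were seen. The members and lists were chosen with earlier results of these data known. Promoter windows are from RefSeq (GRCm38.p6). Alternatives changed the filter, scaling, trend, replicate block, libraries and probe set.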

Additional observations from a re-analysis of the deposited data

How the results depend on the processing

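No member passed the threshold under any alternative run, by title or by description: no filter, a mean of at least 6, median centring, no trend, the replicate block, each library left out, the mean of a gene's probe sets and, added after seeing the data, probe sets without the _x_at or _s_at suffix. The lowest adjusted p of a member in limma was 0.080, by description with the replicate number as a block. The block changed no member's call, with 0 members past the threshold under both labels. Same-numbered libraries deviated with a correlation of -0.20 by title and 0.59 by description. By description, calls over the whole array numbered 2 as reported, 10 with median centring and with the mean of a gene's probe sets, and 0 without the filter, with the block and without any 1 library; none of these was a member. Crossed numbers as a block, added after seeing the data, gave 0 members by title. The median difference by description lay between 0.02 and 0.11 over the alternatives, with 0.05 to 0.11 when a library was left out, and 0.01 in the replicate 2 pair. By title it lay between -0.09 and 0.01. A gene whose groups of 2 do not overlap must keep its sign when 1 library is left out. That held in advance for 16 members by description and 4 by title, so the next counts mostly restate the overlap. Leaving out 1 library in turn left the sign of the difference by description as it was in 18 of 32 members and by title in 6. Among the former, Mcm7 stayed between 0.37 and 0.42, Mcm3 between -0.34 and -0.32 and Fancd2 between 0.81 and 1.03, while Brca1 spanned 0.37 to 0.91, Lig1 0.24 to 0.63 and Pola1 -0.998 to -0.43. The number of arrays limits what can be resolved, and values of different probe sets cannot be set against each other.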
